A study of Mus musculus with 3 samples.

Results

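The genes described here encode the cathepsins, the proteases of the lysosome, together with the subunits of the vacuolar proton pump that acidifies it and the membrane glycoproteins Lamp1 and Lamp2. Members were taken by name from the annotated protein-coding genes of the deposited files: symbols of Cts followed by a single letter, symbols beginning with Atp6v0 or Atp6v1, and Atp6ap1, Atp6ap2, Lamp1 and Lamp2. The rule found 45 genes among 54495 (21995 of them protein-coding), namely 18 cathepsins, 25 genes of the pump and 2 LAMP genes. RNA came from dura mater of the 4T1-DM mouse model of dural metastasis, in which mice were inoculated with 4T1-DM cells (4T1 is a mouse mammary carcinoma line). All 3 groups carried these cells and differed in treatment: PBS in the first, ZOL in the next and ZOL+Ang2 in the last. The labels do not spell these names out. Dorsal dura was collected on day 12 after inoculation and digested with collagenase VIII and DNase I, the cells are labelled as meningeal CD45-CD31+PDPN+, and material of 6 mice was mixed into 1 library per group. For strain, age, dose and timing of treatment, nothing is given in the sources used here. Where 3 values follow each other below, they belong to PBS, ZOL and ZOL+Ang2, in that order.

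Lysosomes degrade what a cell takes up and what it turns over through autophagy. Their cathepsins are made as inactive precursors and work best at acid pH. They fall into cysteine proteases (B, C, F, H, K, L, O, S, W, Z and, in rodents, placental forms), serine proteases (A, G) and aspartic proteases (D, E). The acid is supplied by the vacuolar ATPase, in which the cytosolic V1 sector (subunits A to H) hydrolyses ATP and turns a rotor in the V0 membrane sector (a, c, c″, d, e), through which protons pass. Several subunits exist as isoforms encoded by separate genes, and the isoform of subunit a is known to set the membrane at which a pump sits. Lamp1 and Lamp2 are the abundant glycoproteins that line the lysosomal membrane. In lymphatic endothelium, as in other endothelia, lysosomes handle endocytosed receptors and protein, whereas macrophages, neutrophils and osteoclasts carry particular cathepsins and pump isoforms at high level.

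With 1 library per group there was no replicate, no test was possible, and each value describes a library and not the spread between mice. Levels are given as CPM (recovered reads scaled by library size) where libraries are compared, and as the deposited RPKM (per kilobase of exon) where genes are compared within a library. The libraries held 1675532, 16586760 and 9204901 reads. For a gene with 0 reads a floor of 3 reads was taken, which amounts to 1.61, 0.191 and 0.342 CPM. This floor covers counting alone. Folds given below as at least a value are therefore set against the floor and do not bound the level in the cells. The PBS library stood apart: 12 satellite-type gene models took 21.1% of its reads against 1.03% and 3.40%. Mitochondrially encoded genes took 12.1% against 1.52% and 1.19%. The 1733 chemoreceptor genes, which dural cells are not known to use, took 2.87% against 0.0508% and 0.150%. Transcripts did not follow the labelled gate evenly. Pecam1 (CD31) stood at 1.08, 475 and 177 CPM, Pdpn at 18.8, 67.5 and 171, and Ptprc (CD45), which the gate excludes, at 156, 25.1 and 76.1. Of the 6 lymphatic markers listed, Lyve1 had 0 reads in each library and Prox1 had 2 reads in PBS and 0 in the others. The remaining markers had reads but followed no common order. Flt4 stood at 0.538, 70.9 and 23.8 CPM and Ccl21a at 0, 11.1 and 3.88, both highest in ZOL. Mmrn1 stood at 155, 11.5 and 12.0 CPM, and Reln was likewise highest in PBS, at 99.6 CPM. The members are therefore described as transcripts of these libraries, not of a verified lymphatic cell.

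In all, 30 of the 45 members were measured, that is, averaged 10 CPM or more, and 17 of these reached 10 CPM in each. Atp6v0a1 and Atp6v0e2 were measured through the ZOL library alone, in which they were high, so their differences follow in part from that filter. The members with reads numbered 30, 31 and 31. All but Atp6v0e and Ctsf came out as whole reads with the annotation used, and the read numbers of those 2 genes are approximate. Summed over the cathepsins, the level stood at 1167, 3217 and 4929 CPM. The pump genes summed to 862, 1676 and 1672 CPM and the LAMP genes to 311, 623 and 779. Between ZOL and ZOL+Ang2 the summed cathepsin level thus differed while the summed pump level was nearly equal.

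The comparison of ZOL+Ang2 with ZOL concerns what Ang2 added to ZOL. The measured members that stood highest in ZOL+Ang2 relative to ZOL were the cathepsins Ctsc and Ctss. The pump genes Atp6v0d1 and Atp6ap2 and the cathepsins Ctsk, Ctsf and Ctsz were also higher, by less, and 12 of 17 measured pump genes and 6 of 11 measured cathepsins lay within 2-fold. A gene was counted as apart when the ratio of its CPM, with 5 CPM added to each, reached 2-fold. On that count 7 of 30 measured members were higher and 3 were lower in ZOL+Ang2, against 16.2% and 24.8% of the 10942 genes compared. The members' median log2 fold was 0.32, and that of all genes was -0.02. Among cathepsins 5 of 11 measured were higher and 0 lower; among pump genes 2 of 17 were higher and 3 lower. These shares describe this pair of libraries. In such bulk RNA, fewer cells of a type and less RNA per cell cannot be told apart.

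Ctsc encodes dipeptidyl peptidase I, which trims and so activates the serine proteases of neutrophil, mast cell and cytotoxic lymphocyte granules. Ctsc (ENSMUSG00000030560, chromosome 7, 88278085 to 88310888 in mm10) stood at 60.3, 51.1 and 557 CPM. It was within 2-fold between PBS and ZOL (log2 fold -0.22, but -1.02 with median-of-ratios scaling and -1.41 with RPKM as deposited) and 10.9-fold higher in ZOL+Ang2 than in ZOL (95% counting interval 10.1 to 11.8). Intervals of this kind are exact binomial intervals of the ratio of reads without the added 5 CPM. They treat reads as independent, cover at most counting error, and say nothing of variation between mice. Ctss encodes cathepsin S, which antigen-presenting cells use to cut the invariant chain of MHC class II and which stays active near neutral pH. Ctss (ENSMUSG00000038642, chromosome 3, 95526786 to 95556403) stood at 21.0, 41.7 and 381 CPM, and was 9.13-fold higher in ZOL+Ang2 than in ZOL (8.39 to 9.94). For both genes the ZOL+Ang2 library lay far above PBS and ZOL.

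Smaller differences in the same direction were seen for Ctsk, Ctsf and Ctsz. Ctsz, a carboxypeptidase, stood at 181, 292 and 635 CPM and was 2.17-fold higher in ZOL+Ang2 than in ZOL (2.09 to 2.26). Ctsf, a widely expressed cysteine protease, stood at 2.69, 113 and 273 CPM and was 2.41-fold higher (2.26 to 2.56). Ctsk, the collagen-cleaving cathepsin of osteoclasts that fibroblasts also make, stood at 118, 14.2 and 36.5 CPM, so that the PBS library was the highest and ZOL the lowest, with ZOL+Ang2 2.57-fold above ZOL (2.16 to 3.06). Ctsb, the most read cathepsin of the ZOL+Ang2 library, stood at 554, 723 and 1180 CPM and remained within 2-fold (1.63-fold higher, 1.59 to 1.68).

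The other 5 measured cathepsins lay within 1.39-fold of each other in these 2 libraries. Ctsl, an endopeptidase of lysosome and nucleus, stood at 131, 1121 and 902 CPM, 1.24-fold lower in ZOL+Ang2 than in ZOL (1.21 to 1.28). Ctsh, an aminopeptidase, stood at 17.2, 319 and 360 CPM, and Ctso, a little-studied cysteine protease, at 1.08, 76.2 and 58.0. Ctsd, the main aspartic protease of lysosomes, stood at 59.2, 238 and 330 CPM. Ctsa, which protects beta-galactosidase and neuraminidase within a complex, stood at 3.23, 227 and 216 CPM. The difference between ZOL and ZOL+Ang2 was therefore uneven within the family: it was about 10-fold for Ctsc and Ctss and near 1 for Ctsa and Ctsh.

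**Figure D1:**
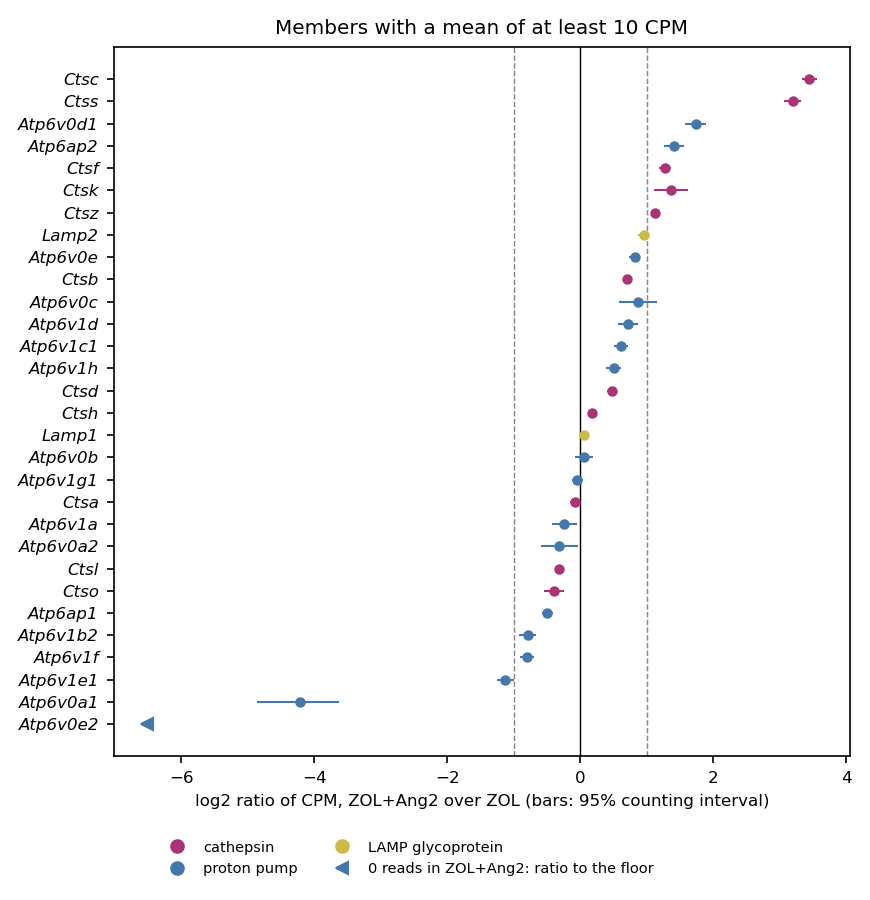
Log2 ratio of CPM in ZOL+Ang2 over ZOL for the measured members, with 95% counting intervals as bars; an arrow marks a member with 0 reads in ZOL+Ang2, whose ratio was taken to the floor of 3 reads. Ctsc (10.9-fold) and Ctss (9.13-fold) lie farthest to the higher side, and Atp6v0a1 (18.5-fold) and Atp6v0e2 farthest to the lower side.

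Within each library, shares of the summed cathepsin RPKM do not depend on how libraries are scaled. Ctsz ranked first in each, with 32.9%, 25.3% and 29.2% of the cathepsin sum. The genes behind it differed. In PBS they were Ctsb with 24.0% and Ctsk with 20.4%, and in ZOL they were Ctsl with 21.6% and Ctsb with 14.9%. In ZOL+Ang2 they were Ctss with 18.6% and Ctsb with 12.9%. Ctss thus ranked sixth, seventh and second in the 3 libraries, with 4.05%, 3.83% and 18.6%. Ctsk was not among the leading genes elsewhere, with 1.17% in ZOL and 1.60% in ZOL+Ang2, and Ctsl took 5.29% in PBS and 9.22% in ZOL+Ang2. Ctsd held the fourth rank in each library with 6.60%, 12.6% and 9.30%.

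**Figure D2:**
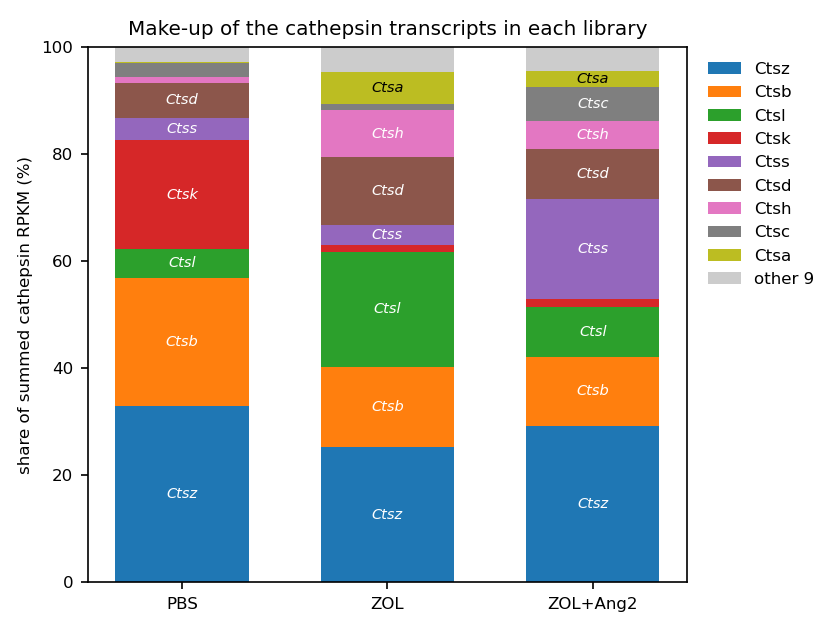
Stacked bars of each cathepsin's percent of the summed cathepsin RPKM, 1 bar per library. Ctsz is the largest segment in each bar (32.9%, 25.3% and 29.2%), the segment of Ctsk is large in PBS alone (20.4%), that of Ctsl in ZOL (21.6%) and that of Ctss in ZOL+Ang2 (18.6%).

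Of the pump, 1 of 7 measured V0 genes was higher and 2 lower in ZOL+Ang2 than in ZOL, shares near those of all genes, 0 of 8 V1 genes were higher and 1 lower, and 1 of 2 accessory subunits was higher. Atp6v0d1, the common isoform of the stalk subunit d that joins rotor and V1, stood at 7.53, 32.2 and 107 CPM. Atp6v0d1 (ENSMUSG00000013160, chromosome 8, 105524465 to 105566047) was 3.33-fold higher in ZOL+Ang2 than in ZOL (2.98 to 3.72). Atp6ap2, the prorenin receptor and an accessory subunit needed for pump assembly, stood at 5.92, 39.7 and 105 CPM and was 2.65-fold higher (2.39 to 2.94). These were the 2 pump genes called higher. The other accessory subunit, Atp6ap1, stood at 164, 271 and 192 CPM and lay within 2-fold, so the accessory pair did not move alike.

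The pump genes called lower in ZOL+Ang2 were Atp6v0a1, Atp6v0e2 and Atp6v1e1. Atp6v0a1, the a isoform of neurons and many other cells, stood at 0, 50.7 and 2.74 CPM, which is 18.5-fold lower in ZOL+Ang2 than in ZOL (12.4 to 29.1). Atp6v0e2, an isoform of the small subunit e, stood at 0, 31.3 and 0 CPM, at least 91.6-fold lower against the floor. Atp6v1e1, the common peripheral stalk subunit E, stood at 0, 165 and 75.7 CPM, 2.18-fold lower (2.01 to 2.38). The difference of Atp6v1e1 lay just past 2-fold (log2 -1.08) and was not called with median-of-ratios scaling (-0.88) or with RPKM as deposited (-0.91). Reads that are present in 1 library and missing in another were common in these data: of 3916 genes with at least 10 CPM in both PBS and ZOL, 7.35% had 0 reads in ZOL+Ang2, and of 9310 genes with at least 10 CPM in ZOL, 7.79% had 0 reads in both other libraries.

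The other V1 subunits lay within 2-fold between ZOL and ZOL+Ang2. In ZOL and ZOL+Ang2, catalytic subunit A (Atp6v1a) stood at 47.1 and 39.9 CPM, B (Atp6v1b2) at 132 and 76.3, C (Atp6v1c1), the subunit that leaves when the pump is taken apart, at 102 and 156, D (Atp6v1d), part of the rotor, at 48.2 and 78.9, F (Atp6v1f) at 190 and 109, G (Atp6v1g1) at 220 and 213, and H (Atp6v1h), a regulator of the free V1 sector, at 84.9 and 120. Some were higher and others lower in ZOL+Ang2. Of the V0 subunits, Atp6v0b (subunit c″ of the rotor ring) stood at 133, 76.4 and 79.3 CPM, and Atp6v0e at 119, 149 and 262. Per kilobase of exon, the 8 measured V1 genes ran from 5.17 RPKM (Atp6v1a) to 129 (Atp6v1g1) in ZOL, and from 4.94 to 140 with the same genes at the ends in ZOL+Ang2. Subunits that share 1 complex thus differed widely in RPKM within a library, over exon lengths of 1063 to 9746 bases.

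Atp6v0c, the proteolipid that forms the ring through which protons pass, is uncertain. It stood at 2.15, 13.3 and 24.3 CPM, from 4, 209 and 213 reads. A processed pseudogene, Atp6v0c-ps2, matches its transcript at 99.8% over 465 bases and held 71, 2164 and 1024 reads. Where reads of the gene and its copy were assigned cannot be told from the files, so neither the level of Atp6v0c nor its difference can be read alone. Atp6ap2 also has a copy, Gm36448 (98.4% over 438 bases), with 56 reads in PBS and 0 in the others, and the 11 PBS reads of Atp6ap2 carry the same doubt. Nothing is given in the sources used here on whether counting used strand, and this touches several cathepsins. Ctsa shares 495 exonic bases with Pltp on the opposite strand (894, 5448 and 1731 reads of Pltp), and Ctsb shares 774 with Fdft1 (2, 3703 and 6 reads of Fdft1). Ctsl shares 26.9% of its exonic bases with the antisense gene Gm47123, which had 0 reads in each library, and Ctsz shares 10 bases with Nelfcd. Ctsd shares 808 exonic bases (34.4%) with Gm49369 on the same strand, which had 0 reads in each library. Strand cannot separate those 2 genes, and how reads on the shared bases were counted cannot be told from the files.

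**Figure D3:**
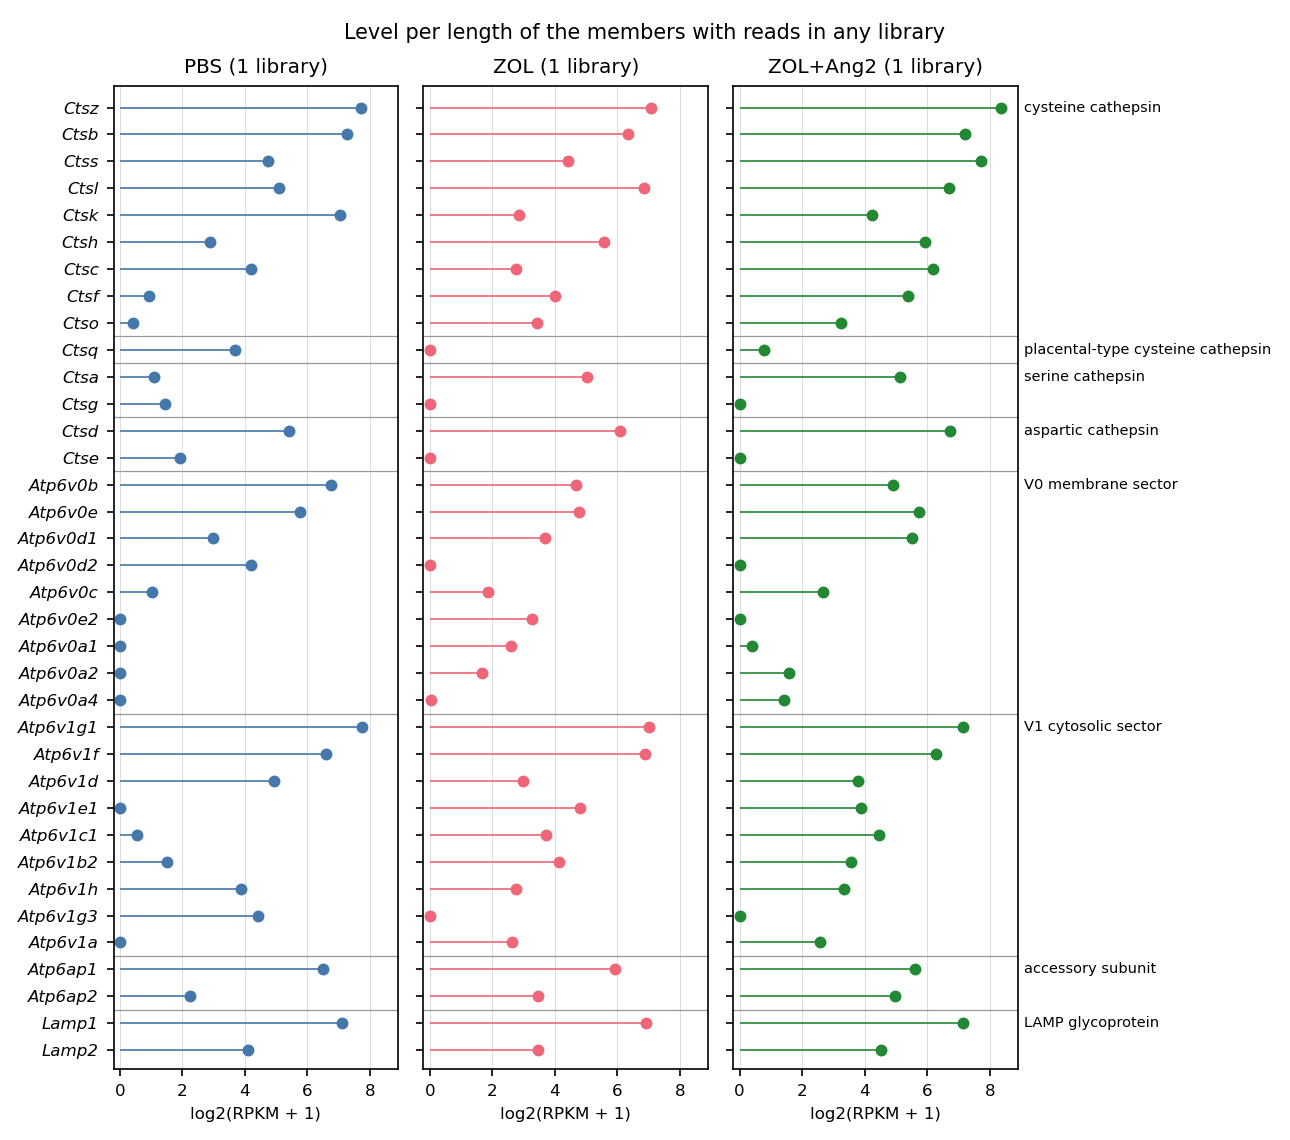
Level of each member with reads in any library as log2(RPKM + 1), 1 panel per library, so that genes are compared within a library only. Ctsz, Atp6v1g1, Lamp1 and Ctsb are among the highest in each panel, while in PBS several pump genes lie at 0 (Atp6v0a1, Atp6v0a2, Atp6v1a and Atp6v1e1).

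The isoforms read for single subunits were not the same in the 3 libraries. For subunit a, RPKM within a library was led in each by Tcirg1, which encodes isoform a3 of osteoclast ruffled borders and secretory lysosomes and lies outside the naming rule. It took 100%, 71.8% and 75.8% of the RPKM of the 4 a genes. The next isoform was Atp6v0a1 in ZOL with 19.7%, against 1.89% in ZOL+Ang2. Atp6v0a2, the isoform of Golgi and endosomes, took 8.43% and 12.1% in ZOL and ZOL+Ang2. Atp6v0a4, the isoform of renal intercalated cells and inner ear, took 0.0978% and 10.3%. Atp6v0a4 was not among the measured members, and its 0, 0.191 and 11.3 CPM rest on 3 reads in ZOL (59.1-fold higher in ZOL+Ang2, 19.6 to 291). Atp6v0a2 stood at 0, 22.3 and 17.9 CPM.

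For subunit d, Atp6v0d2, the isoform of osteoclasts and kidney, made up 71.4% of d RPKM in PBS (17.4 RPKM against 6.97 for Atp6v0d1) and had 0 reads in ZOL and ZOL+Ang2. Atp6v0d2 stood at 28.5 CPM in PBS from 53 reads, and ZOL was at least 149-fold lower. For subunit G, Atp6v1g3, the renal isoform, made up 8.71% in PBS (20.3 RPKM against 213 for Atp6v1g1) and also had 0 reads in the others. Atp6v1g3 stood at 23.1 CPM in PBS from 43 reads, and ZOL was at least 121-fold lower. Neither Atp6v0d2 nor Atp6v1g3 passed the filter on mean CPM. Genes seen in PBS alone were frequent: of 8767 genes with at least 10 CPM in PBS, 25.0% had 0 reads in both other libraries, and 2 of 20 such members did. For subunit e, Atp6v0e2 made up 24.7% in ZOL (8.73 RPKM against 26.6 for Atp6v0e) and 0% in PBS and ZOL+Ang2. For subunits B, C and E, only Atp6v1b2, Atp6v1c1 and Atp6v1e1 had reads, and Atp6v1b1, Atp6v1c2 and Atp6v1e2, isoforms of kidney, epithelia and testis among other tissues, had 0 in each library.

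**Figure D4:**
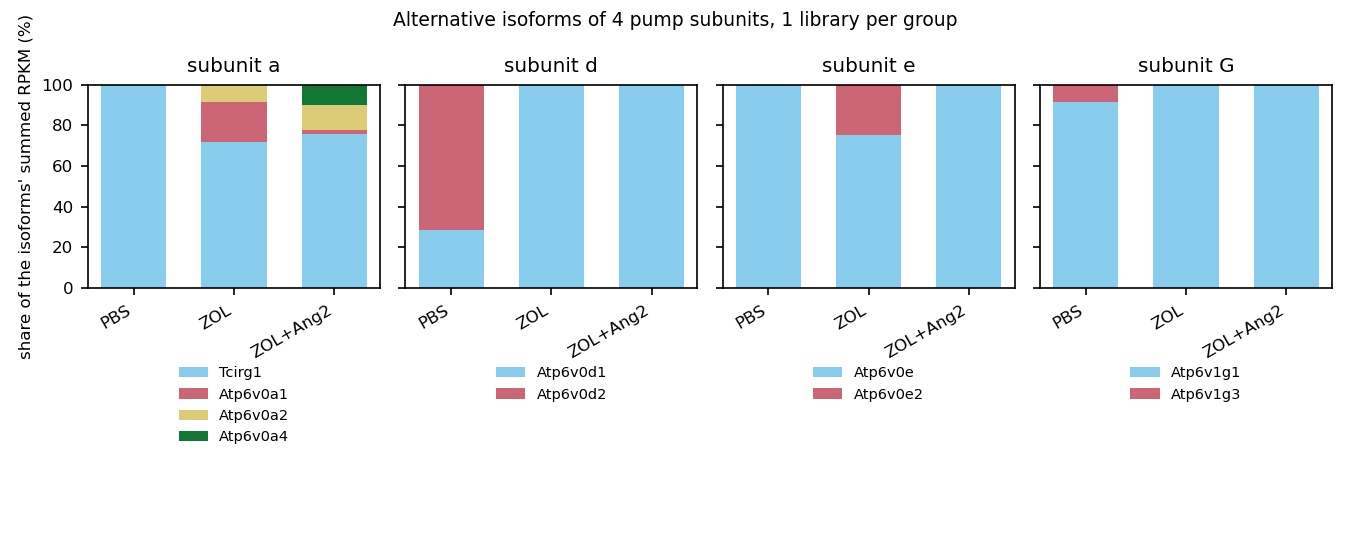
Stacked bars of each isoform's percent of the summed RPKM of its subunit, 1 bar per library, for subunits a (with Tcirg1), d, e and G. Tcirg1 is the largest segment of subunit a in each library (100%, 71.8% and 75.8%), Atp6v0d2 appears in PBS alone (71.4%), and Atp6v0e2 in ZOL alone (24.7%).

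Lamp1 (ENSMUSG00000031447, chromosome 8, 13159161 to 13175338) stood at 218, 478 and 499 CPM, level between ZOL and ZOL+Ang2. Lamp2, whose isoforms also serve chaperone-mediated autophagy and the fusion of autophagosomes, stood at 93.1, 144 and 280 CPM. It was 1.94-fold higher in ZOL+Ang2 than in ZOL (1.83 to 2.06) and was not called. Thus neither gene of the lysosomal membrane pair was called between these libraries as reported, while 5 cathepsins were. For Lamp2 this depended on the scaling. Its log2 fold was 0.93 as reported, 1.12 with median-of-ratios scaling and 1.06 with RPKM as deposited, the last 2 of which lie past 2-fold.

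Many lysosomal genes carry near their start the palindrome CACGTG, the core of the site bound by TFEB, TFE3 and MITF, and a longer palindrome built on it is known as the CLEAR element. These were looked for from 250 bases before to 50 bases after each start, in RefSeq promoters of GRCm38.p6, in which 35 of the 45 members had an entry. CACGTG, which reads the same on both strands, was present in 9 of these 35 members (25.7%) and in 8.09% of all 27025 genes in the table. TCACGTG, which contains it and was searched on both strands, was present in 7 of the 35 members against 4.29% of genes. The full CLEAR palindrome was present in 0 members and in 0.370% of genes. The 9 holders were Atp6v0b, Atp6v0d1, Atp6v0e, Atp6v1a, Ctsa, Ctsd, Ctsf, Ctsl and Lamp1, all of them measured. The 120 bases before the start are printed for the members with the most copies outside and inside the pump, and for Ctss, which differed strongly between ZOL and ZOL+Ang2 and held no copy. Capitals mark TCACGTG or its reverse complement CACGTGA, and each is written 5′ to 3′ on the gene's own strand.
Lamp1, chr8:13159041-13159160, plus strand: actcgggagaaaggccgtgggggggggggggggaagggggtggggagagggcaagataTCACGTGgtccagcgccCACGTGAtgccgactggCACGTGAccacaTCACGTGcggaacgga
Atp6v0b, chr4:117887330-117887449, minus strand: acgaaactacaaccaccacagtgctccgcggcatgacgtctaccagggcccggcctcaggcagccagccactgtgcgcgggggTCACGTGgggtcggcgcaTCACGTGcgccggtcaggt
Ctss, chr3:95526666-95526785, plus strand: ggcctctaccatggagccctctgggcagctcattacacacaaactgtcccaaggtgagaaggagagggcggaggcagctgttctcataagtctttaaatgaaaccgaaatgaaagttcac

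Lamp1 held 4 copies within 61 bases of its start and Atp6v0b held 2 within 36, and both genes were level between ZOL and ZOL+Ang2. The 9 measured members with CACGTG had log2 folds of -0.31 to 1.59 in ZOL+Ang2 against ZOL, with a median of 0.06. The 14 measured members with an entry and without it ran from -2.86 to 3.32, with a median of 0.67. The lowest of the latter values are those of Atp6v0a1 and Atp6v0e2, which were measured through ZOL alone. A match or its absence in this window describes sequence and says nothing of binding.

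The comparison of ZOL with PBS concerns ZOL by itself. Ctsl, Ctsh and Ctsd stood higher in ZOL and Ctsk lower. Of the 8 measured V1 genes 5 were higher, 1 of which, Atp6v1f, was not called with either of the other scalings given below. By the same count 18 of 30 measured members were higher and 1 lower, against 49.2% and 29.4% of all genes compared. The members' median log2 fold of 1.56 was 0.62 above that of all genes, 0.94. With median-of-ratios scaling the split was 13 higher and 6 lower and the median of all genes moved to -0.17, and with RPKM as deposited the split was 13 and 8 and that median was -0.90. Of all genes, 37.4% and 31.4% were higher under those scalings, so the members' count of higher genes lay near the background. Their count of lower genes lay under that of all genes as reported and under those scalings, in which 41.7% and 49.2% of all genes were lower.

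Ctsl stood 8.57-fold higher in ZOL than in PBS (7.55 to 9.77) and Ctsh 18.5-fold (13.1 to 27.1). Ctsd stood 4.02-fold higher (3.32 to 4.90). Ctsk was the measured member called lower, 8.30-fold (6.85 to 10.04), from 219 reads in PBS and 223 in the deeper ZOL library. Those 4 calls held with median-of-ratios scaling, and the calls of Ctsl, Ctsh and Ctsk also with RPKM as deposited. Other large ratios rest on few PBS reads: 6 for Ctsa (70.4-fold, 32.3 to 192), 5 for Ctsf (42.1-fold, 18.0 to 130), 2 for Ctso (70.8-fold, 19.6 to 585) and 3 for Atp6v1c1 (63.2-fold, 21.6 to 307). For Atp6v1b2, with 11 PBS reads, ZOL stood 22.3-fold higher (12.4 to 44.8). Atp6v1f stood 3.09-fold higher (2.57 to 3.76), a call lost with median-of-ratios scaling and with RPKM as deposited.

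Of the measured members 5 had 0 reads in PBS. Against the floor they were at least 102-fold (Atp6v1e1), 31.4-fold (Atp6v0a1), 29.2-fold (Atp6v1a), 19.4-fold (Atp6v0e2) and 13.8-fold (Atp6v0a2) higher in ZOL. A and E are core subunits of V1. A processed pseudogene of Atp6v1a, Gm18990 (90.2% over 296 bases), held 42, 4 and 0 reads, so the PBS level of Atp6v1a carries the same doubt as that of Atp6ap2. Zero reads were also frequent in that library at large: of 6351 genes with at least 10 CPM in both ZOL and ZOL+Ang2, 23.5% had 0 reads in PBS, and 3 of 28 such members did. Ctsb, Ctsz, Ctss, Lamp2, Atp6ap1, Atp6v0e, Atp6v1g1 and Atp6v1h lay within 2-fold of PBS in ZOL, and the sign of their difference turned under at least 1 other scaling. Atp6v0b and Atp6v1d also lay within 2-fold (log2 -0.77 and -0.72) and were past 2-fold lower with median-of-ratios scaling (-1.60 and -1.52) and with RPKM as deposited (-2.08 and -1.95). Lamp1 was 2.19-fold higher (1.99 to 2.43) and its sign also turned, with RPKM as deposited.

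ZOL+Ang2 and ZOL were each set against the same PBS library, so both comparisons share what is particular to it. In ZOL+Ang2 against PBS, 21 of 30 measured members were higher and 1, Ctsk, lower, against 44.2% and 33.1% of all genes compared. The members' median log2 fold was 2.12, with 0.48 for all genes. The split was 17 and 4 with median-of-ratios scaling and 16 and 6 with RPKM as deposited. Of 11 measured cathepsins 10 were higher, but Ctsb was not called with median-of-ratios scaling, library totals or RPKM as deposited. Ctss stood 18.2-fold higher (13.3 to 25.6), Ctsc 9.23-fold (7.66 to 11.2), Ctsl 6.89-fold (6.07 to 7.87) and Ctsz 3.51-fold (3.15 to 3.93), of which the call of Ctsz was lost with RPKM as deposited. Ctsk stood 3.23-fold lower (2.71 to 3.85). Of 17 measured pump genes 9 were higher and 0 lower, Atp6v0d1 among them at 14.2-fold (8.45 to 26.2) from 14 PBS reads.

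Of the 15 members that were not measured, 9 had 0 reads in each library. They were Atp6v1b1, Atp6v1c2, Atp6v1e2, Atp6v1fnb (which matches the name pattern only), Atp6v1g2, Ctsw, a cathepsin of cytotoxic lymphocytes, and the placental Ctsj, Ctsm and Ctsr. Ctsq, also placental, stood at 11.8 CPM in PBS from 22 reads, at 0 in ZOL and at 1.60 in ZOL+Ang2. Ctse, an aspartic protease of stomach and immune cells, stood at 5.38, 0 and 0 CPM, and Ctsg, the serine protease of neutrophil granules, at 1.08, 0 and 0. Of the 4 placental cathepsins Ctsq alone thus had reads, most of them in PBS. The renal-type pump isoforms did not follow a common order, since Atp6v1g3 and Atp6v0d2 had reads in PBS alone, Atp6v0a4 mainly in ZOL+Ang2 and Atp6v1b1 in none.

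Between ZOL and ZOL+Ang2, measured markers of macrophages and neutrophils were higher along with Ctsc and Ctss. Between PBS and ZOL most measured macrophage markers were lower while the cathepsin sum was higher. Summed macrophage markers stood at 1104, 103 and 1830 CPM, of which Lyz2 made up the larger part in each library. All 7 measured of 10 were higher in ZOL+Ang2 than in ZOL, against 16.2% of all genes. Among them C1qb was measured through ZOL+Ang2 alone, so its direction follows from that filter. Of the 7, 6 were lower in ZOL than in PBS, against 29.4% of all genes. Lyz2 stood at 737, 68.8 and 929 CPM and C1qa at 104, 0 and 190, while Csf1r stood at 1.08, 0 and 20.2 and Cd68 had 0 reads in each library. Summed neutrophil and myeloid precursor markers stood at 181, 40.7 and 777 CPM, with 5 of 5 measured (of 9) higher in ZOL+Ang2 than in ZOL. In ZOL against PBS 2 of 5, S100a8 and S100a9, were lower, against 29.4% of all genes. The other measured markers, Ly6g, Camp and Ngp, had at most 2 reads in PBS and 0 in ZOL. These genes were measured through ZOL+Ang2 alone, so their place among the 5 higher follows from that filter. Ltf, which is listed but was not measured, had 0, 9.94 and 10.1 CPM and so was level across the last 2 libraries. Elane, Prtn3 and Mpo had 0 reads in ZOL+Ang2. In PBS the macrophage sum was 1104 CPM while Ctss stood at 21.0 CPM. The part of such cells in the results was not tested.

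Fibroblast markers summed to 343, 454 and 10780 CPM, with 6 of 6 higher in ZOL+Ang2 than in ZOL, and erythroid markers to 190, 7.20 and 25165. Pan-endothelial markers went the other way, with sums of 1239, 2449 and 1002 CPM and 6 of 8 lower in ZOL+Ang2 than in ZOL. Of all genes compared, 16.2% were higher and 24.8% lower in ZOL+Ang2 than in ZOL. Osteoclast markers summed to 92.0, 270 and 88.5 CPM, but the sum is mostly Mmp9 and Nfatc1. The defining Acp5 stood at 1.08, 0.510 and 0 CPM, and Ocstamp and Dcstamp had 0 reads in each library, beside the Ctsk, Tcirg1 and Atp6v0d2 that PBS held. Lymphocyte markers summed to 268, 0.446 and 0 CPM, and mast cell markers to 31.8, 15.0 and 0.342. Epithelial markers, which 4T1 cells also express, summed to 542, 4687 and 4394 CPM, but the sum is mostly Krt8 and Krt18. Krt8, Krt18 and Epcam were higher in ZOL and ZOL+Ang2 than in PBS, as were Ctsl, Ctsh, Ctsa and Ctsd. Krt19 stood at 0, 37.3 and 1.03 CPM, and Cdh1 was highest in PBS, at 165, 84.8 and 81.3. The part of these cells was not tested either.

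**Figure D5:**
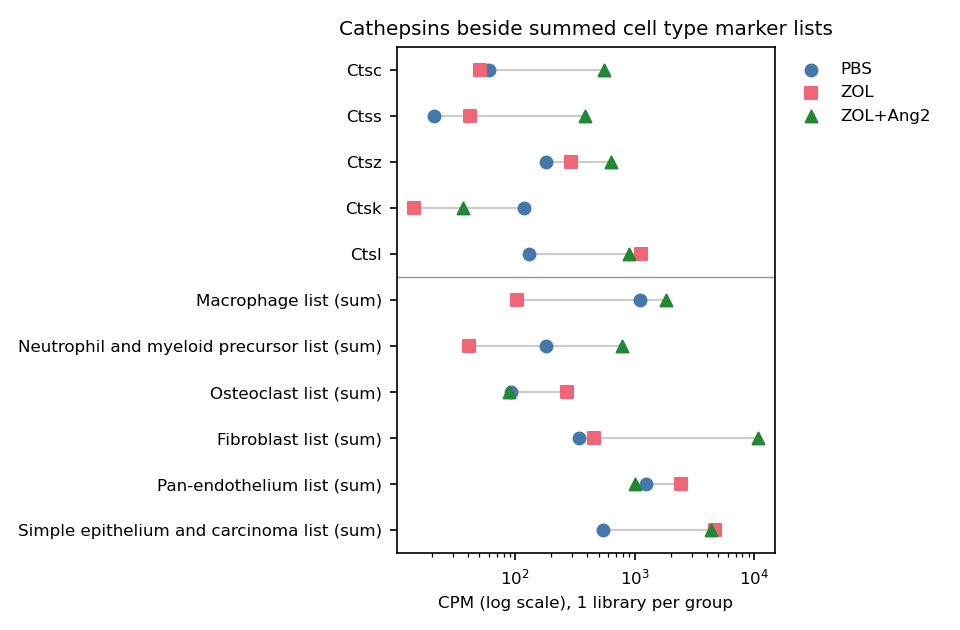
CPM on a log axis in PBS, ZOL and ZOL+Ang2 for Ctsc, Ctss, Ctsz, Ctsk and Ctsl beside the summed marker lists. Ctsc (51.1 to 557 CPM) and Ctss (41.7 to 381) step up from ZOL to ZOL+Ang2. So do the sums of macrophage (103 to 1830), neutrophil (40.7 to 777) and fibroblast markers (454 to 10780). The osteoclast, pan-endothelial and epithelial sums are lower in ZOL+Ang2 than in ZOL.

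Of 28 other lysosomal hydrolases 23 were measured, and 5 were higher and 7 lower in ZOL+Ang2 than in ZOL, shares near the 16.2% and 24.8% of all genes. Whether this differs from the cathepsins was not tested. Hexa, a subunit of beta-hexosaminidase, stood at 29.1, 53.0 and 275 CPM, 5.18-fold higher in ZOL+Ang2 than in ZOL (4.79 to 5.61). Smpd1, acid sphingomyelinase, stood at 0, 64.5 and 0 CPM, at least 189-fold lower against the floor. Neu1, the neuraminidase that cathepsin A protects, stood at 0, 35.4 and 0.228 CPM, while Ctsa itself was level between ZOL and ZOL+Ang2. Smpd1 and Neu1, like Arsa and Pla2g15 among those called lower, were measured through ZOL alone, in which they were high. Their differences, and the count of lower hydrolases, follow in part from that filter. Of 18 genes of the lysosomal membrane and lipid transfer 15 were measured, 3 higher and 4 lower. Among these, Npc1 (higher) was measured through ZOL+Ang2 alone and Scarb2 (lower) through ZOL alone. Npc2, which hands cholesterol on to Npc1, was level at 781 and 771 CPM. Of 9 genes for sorting to lysosomes, all measured, 1 was higher and 3 lower, among them the mannose 6-phosphate receptor gene M6pr at 102 and 17.1 CPM.

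Against PBS, ZOL had 12 of 23 measured hydrolases higher and 4 lower. On the membrane list 9 of 15 were higher and 1 lower, and on the sorting list 4 of 9 and 2. Of all genes compared, 49.2% were higher and 29.4% lower. The hydrolase and sorting counts of higher genes lay near that share. ZOL+Ang2 against PBS had 10 and 5, 9 and 2, and 5 and 3 in these lists. There 44.2% of all genes were higher and 33.1% lower. Of the MiT/TFE factors and their mTORC1 and folliculin regulators 13 of 16 were measured. In ZOL+Ang2 against ZOL, 6 of those 13 were higher and 4 lower, against 16.2% and 24.8% of all genes. Those higher were Flcn, Rraga, Rragc, Lamtor1, Lamtor3 and Lamtor4, and those lower Mitf, Fnip2, Rragb and Lamtor2. Flcn was measured through ZOL+Ang2 alone and Fnip2 through ZOL alone, so their differences follow in part from that filter. ZOL against PBS had 6 and 5 and ZOL+Ang2 against PBS 5 and 2, beside the shares given above. Tfeb, a main activator of lysosomal genes that was not measured by the filter, stood at 0, 26.9 and 0 CPM. Tfe3 stood at 114, 52.4 and 69.1, and Mitf at 38.2, 6.56 and 0. Of these 3 factors, none was highest in ZOL+Ang2. Flcn, whose product folliculin restrains them, stood at 9.69, 2.29 and 50.3 CPM.

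Of 13 cathepsin inhibitors 5 were measured, and all 5 were higher in ZOL than in PBS, where 49.2% of all genes were higher. Serpinb1a (26.4, 0 and 0 CPM) and Stfa3 (12.4, 0 and 0 CPM), which were not measured, went the other way, at least 138-fold and 64.8-fold lower in ZOL against the floor. Cst3, the secreted cystatin C, stood at 521, 2603 and 903 CPM. It was 4.996-fold higher in ZOL than in PBS (4.69 to 5.33) and 2.88-fold lower in ZOL+Ang2 than in ZOL (2.81 to 2.95). Cst3 was thus the inhibitor called lower in ZOL+Ang2 than in ZOL, and 0 were higher. Of all genes, 24.8% were lower and 16.2% higher there. Cstb, the cytosolic cystatin B, stood at 65.1, 364 and 334 CPM, level between ZOL and ZOL+Ang2. Slpi, an inhibitor of serine proteases such as cathepsin G, stood at 30.7, 128 and 235 CPM. In ZOL+Ang2 against PBS 4 of the 5 measured inhibitors were higher and 0 lower, against 44.2% and 33.1% of all genes.

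Of 13 pump assembly and accessory genes outside the naming rule 12 were found and 9 measured. In ZOL+Ang2 against ZOL, 2 were higher and 4 lower, against 16.2% and 24.8% of all genes. Of those lower, Ccdc115, Dmxl2 and Rogdi were measured through ZOL alone, in which they were high. ZOL against PBS had 5 higher and 2 lower, against 49.2% and 29.4% of all genes. ZOL+Ang2 against PBS had 3 and 3, against 44.2% and 33.1% of all genes. Tcirg1 stood at 299, 130 and 77.1 CPM, highest in PBS, in which Atp6v0d2 and Ctsk were also highest. Ncoa7, whose product binds V1, stood at 172, 10.3 and 2.05 CPM.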

How the data were processed

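The submitters' processing notes name the mm10 genome and the tools featureCounts 2.0.6, HISAT2 2.2.1 and fastp. On their order, the annotation, mates and strand, nothing is given in the sources used here. The authors deposited RPKM values per gene. As the design assumed counts, reads were recovered as RPKM times GENCODE M21 exon length divided by a step per library. Within 0.01, 96.9% (PBS), 96.4% (ZOL) and 96.2% (ZOL+Ang2) of non-zero values were whole. Recovered reads came to 1.50, 0.701 and 0.785 times the totals the steps imply, so they need not be the authors' counts. Of 54532 genes, 37 had no exon length. Reads were scaled by TMM (factors 1.11, 0.946 and 0.953; trims of 30% and 5%) to CPM, filtered at a mean of 10 CPM, and compared with a prior of 5 CPM at 2-fold. Ratios of named genes carry exact 95% conditional binomial intervals, which leave out spread between mice because each group is 1 library. They treat reads as independent, and may be too narrow because the amplified reads hold no molecular identifiers. Of low recovered read counts, 61.0% (PBS), 53.2% (ZOL) and 51.0% (ZOL+Ang2) were even, and whether mates were counted apart is not given. Near copies were found with blastn 2.17.0. The steps were also run on simulated data made with the same exon lengths. That run cannot tell whether the recovered reads match the authors' counts.

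Members, gene lists and alternatives were chosen with earlier results of these data known. Named were members past 2-fold in either comparison with ZOL, the 3 highest of each role, isoform pairs, and up to 3 highest and 3 lowest genes per list. Further genes of a list are named where a count or a limit of the filter rests on them. Protein sequences were not used here. Alternatives were other scalings, filters, a prior of 1 CPM, RPKM as deposited with a pseudocount of 1, and calls by the whole interval.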

Additional observations from a re-analysis of the deposited data

How the results depend on the processing

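Settings mattered most for PBS. With median-of-ratios factors, library totals, TMM without satellite-type, mitochondrial and ribosomal RNA models, and RPKM as deposited, 6, 2, 2 and 8 members were lower in ZOL than in PBS (1 as reported) and 4, 2, 2 and 6 in ZOL+Ang2 than in PBS (1 as reported). With a filter of 1 CPM, or none, 5 were lower in each comparison with PBS. With a filter of 50 CPM, 11 were higher in ZOL than in PBS (18 as reported) and the members' median relative to all genes turned to -0.60. With RPKM as deposited, 3 members called apart changed sign, besides members within 2-fold: Lamp1 in ZOL against PBS (-0.19), and Atp6v0e (-0.014) and Ctsb (-0.058) in ZOL+Ang2 against PBS. In ZOL+Ang2 against ZOL, 1 member was lower with median-of-ratios factors (8 higher) and 1 with a filter of 50 CPM (6 higher), against 3 (7 higher) as reported; RPKM as deposited gave 2 lower and 8 higher. Of those 10 calls 8 were kept with median-of-ratios factors, where Atp6v0e2 and Atp6v1e1 were lost, 9 with library totals and with RPKM, and 10 with a prior of 1 CPM. No paired analysis was possible because each group is 1 library, and for the same reason no library could be left out. The 3 reads that set the PBS floor amount to 1.61 CPM, so low PBS levels are the least certain.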
